A study of Homo sapiens with 6 samples.

Results

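VDR, the gene of the vitamin D receptor, and 9 other nuclear hormone receptor genes were followed in ES2 cells after knockdown of UAP1. The other genes are RXRA, RXRB, NR3C1, PPARD, PPARG, RARA, RARG, ESRRA and THRA. The 10 genes were matched by name among the 58735 genes of the count table, and all 10 were among the 15768 genes that passed the filter on low counts. VDR was chosen by its higher level in the siUAP1 libraries, so its values are given as a description with no test. The other 9 genes were taken by name, with earlier results of these data known.

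ES2 is an established human ovarian cancer cell line, which the labels give as ovarian tissue from a high-grade serous carcinoma. UAP1 encodes the enzyme that forms UDP-N-acetylglucosamine, the sugar donor for several kinds of protein glycosylation. The siUAP1 group (genotype UAP1 knockdown) was transfected with UAP1 siRNAs, 2 of which are named without saying which library received which. The control group (genotype WT) received a control siRNA. In both groups the medium was changed 6 hours after transfection and polyA RNA was taken at 48 hours. Each group has 3 libraries, numbered 1 to 3, and neither group is described as having received a receptor ligand beyond what the serum in the medium holds.

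The libraries held between 21267240 and 25972582 counts assigned to genes. UAP1 itself had 521, 608 and 642 counts in the siUAP1 libraries, against 7341, 9081 and 10848 counts in the control libraries, so every library matched its label. Of 8 markers of serous ovarian carcinoma, 5 failed the filter on low counts: MUC16 and SOX17 were at 0, and EPCAM, CDH1 and MSLN never exceeded 0.282 CPM (counts scaled to library size). Of the other serous markers, PAX8 reached at most 2.51 CPM, WT1 at most 2.46 CPM and the keratin gene KRT7 up to 613 CPM. All 7 mesenchymal markers and none of 5 leukocyte markers passed the filter, as did 3 of 4 endothelial markers, among which CDH5 reached 171 CPM and the defining marker PECAM1 at most 2.85 CPM. KRT7 was higher in siUAP1 cells by a log2 fold change of 0.58 ± 0.05 (SE) in an edgeR fit that holds the replicate number constant, a fit that called 9.07% of all genes higher and 7.14% lower. In that fit 2 mesenchymal markers were higher and 2 lower, and 1 and 1 without replicate pair 3. With group alone in the edgeR fit, 0 markers of either list were called. The part of these differences in the results on the receptors was not tested.

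Nuclear hormone receptors are transcription factors that carry a zinc finger domain for DNA and a pocket for a small lipid-soluble ligand. VDR, the retinoic acid receptors (RARA, RARG), the thyroid hormone receptor THRA and the fatty acid receptors (PPARD, PPARG) bind DNA mostly as pairs with a retinoid X receptor (RXRA, RXRB). The glucocorticoid receptor NR3C1 waits in the cytoplasm on HSP90 chaperones until hormone binds, and the oestrogen-related receptor ESRRA works without a known natural hormone as a regulator of mitochondrial genes.

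The stretch of coding sequence below shows what the 10 genes share and where they part. It covers the first part of the first zinc finger, from its first cysteine codon to the end of the P box, the 6 codons that select the DNA element bound. Capitals mark the P box. The bases come from the GENCODE 29 annotation of GRCh38, the build of the count table, and were the same in every annotated transcript of the gene that holds the whole stretch. VDR is shown with a partner, the fatty acid receptor discussed below and the 2 receptors whose P box codes for other residues.
VDR: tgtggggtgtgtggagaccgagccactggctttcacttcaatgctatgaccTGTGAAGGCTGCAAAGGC
RXRA: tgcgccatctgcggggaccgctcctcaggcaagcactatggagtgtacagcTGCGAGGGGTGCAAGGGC
PPARD: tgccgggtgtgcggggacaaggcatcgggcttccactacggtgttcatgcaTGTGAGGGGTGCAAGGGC
NR3C1: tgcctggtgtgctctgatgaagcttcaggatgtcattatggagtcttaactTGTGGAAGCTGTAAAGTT
ESRRA: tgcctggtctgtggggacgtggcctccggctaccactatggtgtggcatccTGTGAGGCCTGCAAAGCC

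In VDR these bases lie in exon 3 of the transcript read (chr12:47878976-47879044, minus strand), in NR3C1 in exon 3 (chr5:143314024-143314092, minus strand) and in ESRRA in exon 2 (chr11:64307414-64307482, plus strand). In the other 7 genes an intron splits the stretch. Against VDR, between 38 of 69 bases in NR3C1 and 50 of 69 in THRA were the same. In the P box alone, NR3C1 shared 13 of 18 bases with VDR, RXRA shared 14, and RARG shared 17. The P boxes of RARA and THRA were the same 18 bases. These identities describe the genes and carry no measurement from the cells.

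Levels per length were compared in the deposited FPKM, which correct counts for a single deposited length per gene. The lengths of the transcripts present were not measured. The 10 genes spanned a wide range, and VDR was the lowest. ESRRA was the highest, at 35.5 ± 2.39 FPKM in siUAP1 cells and 36.6 ± 3.14 FPKM in control cells (SD, n = 3 each, as for all means here). RXRB followed at 25.3 ± 3.58 FPKM in siUAP1 cells and 24.9 ± 3.50 FPKM in control cells, and PPARD at 22.7 ± 2.55 FPKM in siUAP1 cells and 25.5 ± 3.21 FPKM in control cells. PPARG averaged 13.7 ± 3.97 FPKM in siUAP1 cells and 13.2 ± 3.25 FPKM in control cells, and NR3C1 averaged 9.51 ± 0.857 FPKM in siUAP1 cells and 9.05 ± 1.13 FPKM in control cells.

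The remaining 5 receptors were lower. RARG averaged 5.40 ± 1.50 FPKM in siUAP1 cells and 5.05 ± 1.37 FPKM in control cells, and RARA 5.19 ± 0.482 FPKM in siUAP1 cells and 4.84 ± 0.462 FPKM in control cells. THRA averaged 4.45 ± 0.388 FPKM in siUAP1 cells and 4.55 ± 0.720 FPKM in control cells. RXRA, the more studied partner of VDR, averaged 2.26 ± 0.167 FPKM in siUAP1 cells and 2.38 ± 0.151 FPKM in control cells, well below RXRB. The deposited length of RXRA is 11083 bases, against 4731 for RARA, 5127 for RARG and 6959 for THRA. Its place below these 3 genes rests in part on that length. VDR averaged 1.33 ± 0.393 FPKM in siUAP1 cells and 0.561 ± 0.0536 FPKM in control cells. Over the 6 libraries the ranges of neighbours in this order overlapped for RXRB and PPARD, for RARG and RARA, and for RARA and THRA, and for no other neighbouring pair.

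**Figure D1:**
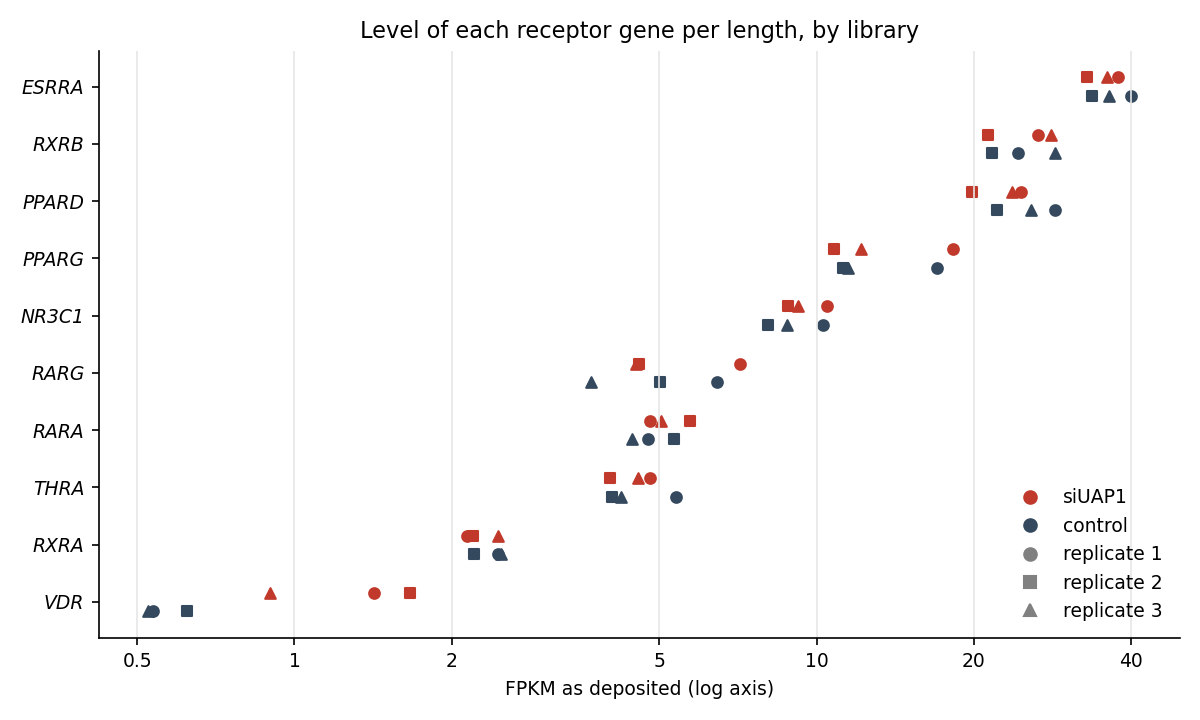
FPKM of each receptor gene (log axis) in the 3 siUAP1 libraries (red, upper row of each gene) and the 3 control libraries (blue, lower row), with the marker shape giving the replicate number. Genes run from the highest mean, ESRRA at 36.1 FPKM, to the lowest, VDR at 0.945 FPKM, and VDR is the one gene whose red and blue points do not overlap.

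VDR (ENSG00000111424, chr12:47841537-47943048, minus strand, GRCh38) had 195, 249 and 131 counts in the siUAP1 libraries, against 65, 91 and 73 counts in the control libraries. In CPM this was 8.16, 9.53 and 5.14 in siUAP1 libraries 1 to 3, and 3.06, 3.58 and 2.99 in control libraries 1 to 3. The lowest siUAP1 library, number 3, lay above the highest control library, number 2, so the groups did not overlap, as was the case for 12.4% of all tested genes. This is the difference that the choice of VDR used.

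Between the means VDR was 2.37 times as high in siUAP1 cells, at 7.61 ± 2.25 CPM in siUAP1 cells and 3.21 ± 0.321 CPM in control cells. The fitted log2 fold change was 1.24 ± 0.26 (SE) with group alone in the model and 1.22 ± 0.17 (SE) with the replicate number as a block. Within replicate numbers the CPM ratio of siUAP1 to control was 2.67 for number 1, 2.66 for number 2 and 1.72 for number 3. Leaving out 1 library at a time gave log2 fold changes between 1.05 and 1.46, and leaving out 1 pair at a time gave 1.10 to 1.41. On the log2(FPKM + 1) scale, which compresses low genes, the difference was 0.56. In RNA from whole cultures, more cells of a type and more RNA per cell cannot be told apart.

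A pair of noncoding genes that overlap VDR on the other strand, AC121338.1 and AC121338.2, had 0 counts in all 6 libraries. Whether the counting used strand is not known from the labels, so reads of genes that overlap on opposite strands may not have been told apart.

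**Figure D2:**
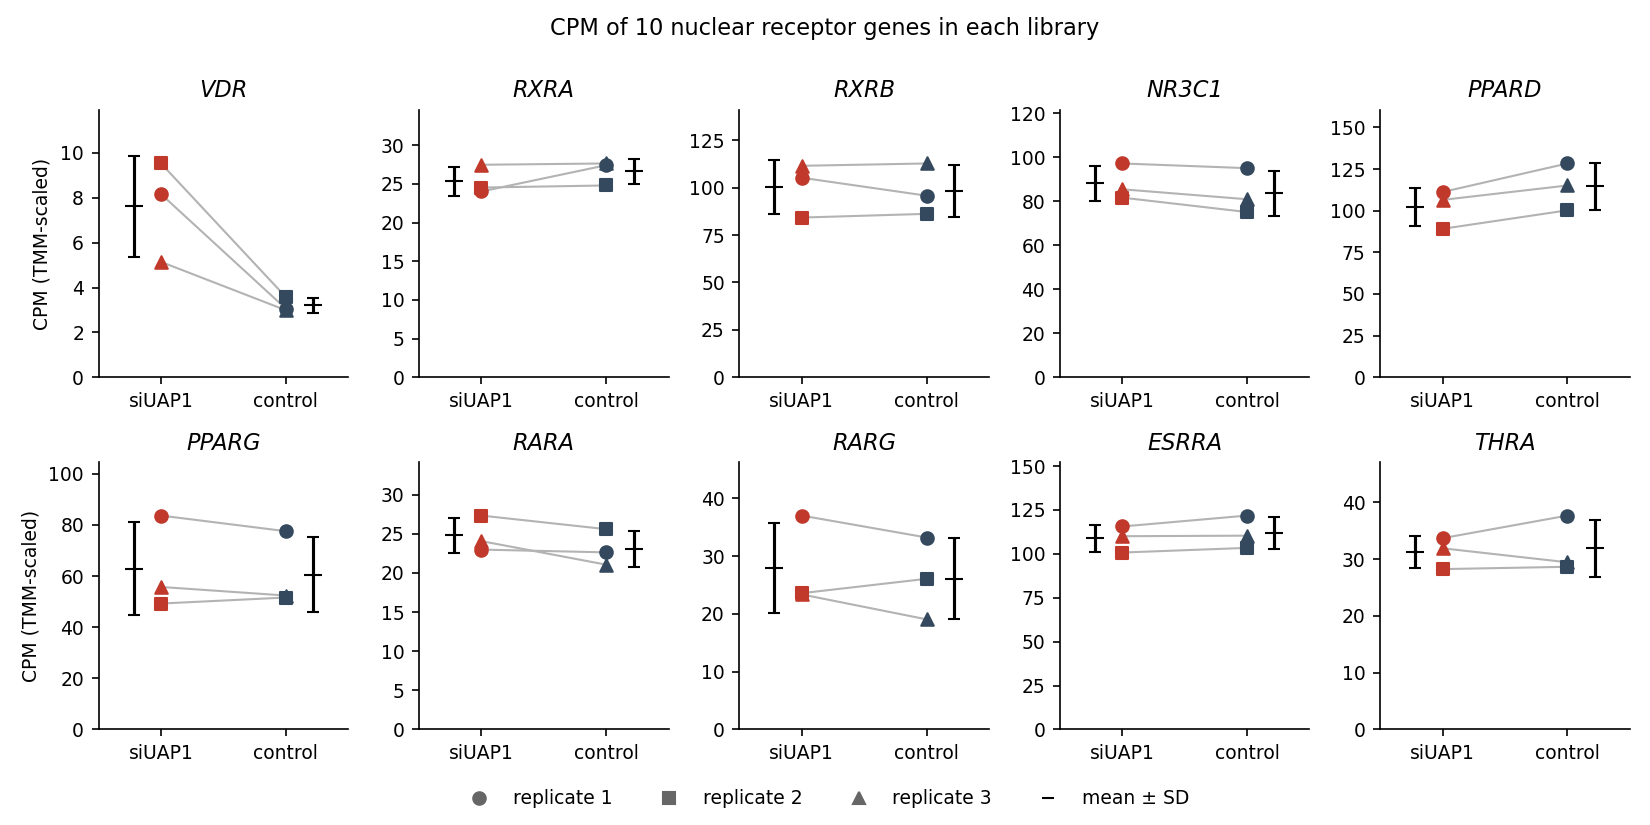
CPM (scaled by TMM, axis from 0) of the 10 receptor genes, with siUAP1 libraries (red) left of control libraries (blue), grey lines joining libraries of the same replicate number and black bars giving the mean ± SD of 3 libraries. VDR is the one gene with all siUAP1 points above all control points. In PPARG and RARG the line of replicate 1 lies above the others.

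For 9 receptors other than VDR the 2 groups overlapped, and none passed the threshold (adjusted p under 0.05 over all 15768 genes) in edgeR's quasi-likelihood test with group alone. With all genes, that test called 17 genes, or 0.108% of those tested. Among the 9 receptors, 0 had an unadjusted p under 0.05, and DESeq2 and limma-voom with group alone called 0 as well. Their log2 fold changes lay between -0.16 and 0.10, with SE of 0.10 to 0.24 and edgeR adjusted p of 0.923 to 0.996. Groups that did not overlap in CPM were found for 0 of these 9, against the 12.4% of all tested genes.

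Libraries of the same replicate number deviated together, so the same test was also run with the number as a block. This fit called 1430 genes higher (9.07%) and 1126 genes lower (7.14%) in siUAP1 cells. Among the 9 receptors it called 0 higher and 1 lower, PPARD. The other 8 had log2 fold changes of -0.07 to 0.10 and edgeR adjusted p of 0.355 to 0.888 with the block.

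The shared partners did not pass in either fit. RXRA (chr9:134317098-134440585, plus strand) had 24.0, 24.5 and 27.5 CPM in siUAP1 libraries 1 to 3 and 27.4, 24.8 and 27.6 CPM in control libraries 1 to 3. The siUAP1 library was the lower of each pair, by a ratio of 0.876 in number 1 and 0.989 and 0.994 in the others, and the blocked fold of 0.953 had a 95% interval from 0.853 to 1.06. RXRB (chr6:33193588-33200688, minus strand) had 105, 84.2 and 111 CPM in siUAP1 libraries and 95.7, 86.2 and 113 CPM in control libraries. Its blocked fold was 1.02, with an interval from 0.948 to 1.10. RXRB shares 244 bases with the zinc transporter gene SLC39A7 on the other strand, which averaged 193 CPM in siUAP1 cells and 177 CPM in control cells and did not pass (edgeR adjusted p = 0.0647 with the block). The small RNA pseudogene RNY4P10, also within RXRB, averaged 0.453 CPM in siUAP1 cells and 0.375 CPM in control cells (edgeR adjusted p = 0.779 with the block).

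In both fatty acid receptors the replicate numbers spanned more than the groups differed. Averaged over the groups, the replicate numbers of PPARD spanned 1.26-fold. PPARD, a receptor that turns on fatty acid oxidation in many tissues (chr6:35342558-35428191, plus strand), had 111, 89.1 and 106 CPM in siUAP1 libraries 1 to 3 and 128, 100.2 and 115 CPM in control libraries 1 to 3. The groups overlapped, but the siUAP1 library was the lower one within every number, at ratios of 0.866, 0.889 and 0.925. With the block PPARD fell by 0.16 ± 0.05 (SE) on the log2 scale (edgeR adjusted p = 0.0233), a fold of 0.893 with a 95% interval from 0.833 to 0.958. Without the block the same difference of -0.16 had an edgeR adjusted p of 0.923. The blocked call was lost when any pair was left out, with edgeR adjusted p of 0.0865, 0.0944 and 0.0946 without pair 1, 2 and 3, and in DESeq2 with the block, at an adjusted p of 0.0858.

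PPARG, the receptor that drives fat cell formation (chr3:12287368-12434356, plus strand), had 83.7, 49.3 and 55.7 CPM in siUAP1 libraries 1 to 3 and 77.6, 51.6 and 52.4 CPM in control libraries 1 to 3. Number 1 was the highest in both groups. Averaged over the groups, the replicate numbers of PPARG spanned 1.60-fold, while siUAP1 over control had a blocked fold of 1.03 (95% interval 0.952 to 1.12).

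The retinoic acid receptors did not pass in either fit. RARG (chr12:53210567-53232980, minus strand) had 37.0, 23.6 and 23.4 CPM in siUAP1 libraries 1 to 3 and 33.2, 26.1 and 19.0 CPM in control libraries 1 to 3. Its replicate numbers spanned 1.66-fold, the widest of the 10 genes, and siUAP1 was higher in 2 of 3 numbers, with a blocked fold of 1.07 (0.951 to 1.21). RARA (chr17:40309192-40357643, plus strand) had 23.0, 27.3 and 24.1 CPM in siUAP1 libraries and 22.6, 25.6 and 21.1 CPM in control libraries, higher with siUAP1 in 3 of 3 numbers. Its blocked fold was 1.07, with an interval from 0.959 to 1.20. Its antisense gene RARA-AS1, at 0.546 CPM in siUAP1 cells and 0.952 CPM in control cells, did not pass (edgeR adjusted p = 0.200 with the block).

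NR3C1 (chr5:143277931-143435512, minus strand) had 97.2, 81.6 and 85.4 CPM in siUAP1 libraries 1 to 3 and 95.02, 75.1 and 80.9 CPM in control libraries 1 to 3. The siUAP1 library was higher in each number, but by at most a ratio of 1.09, and the blocked fold of 1.05 had an interval from 0.981 to 1.13. ESRRA (chr11:64305572-64316743, plus strand) had 116, 101 and 110 CPM in siUAP1 libraries and 122, 103 and 110 CPM in control libraries, a blocked fold of 0.973 (0.908 to 1.04). THRA (chr17:40058290-40093867, plus strand) had 33.7, 28.2 and 31.9 CPM in siUAP1 libraries and 37.7, 28.7 and 29.5 CPM in control libraries, a blocked fold of 0.984 (0.886 to 1.09). For these 3 receptors the groups overlapped and each blocked interval held a fold of 1.

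THRA shares 2926 bases with MED24, a subunit of the Mediator complex, and 1081 bases with NR1D1, a receptor of the circadian clock, both on the other strand. ESRRA shares 284 bases with TRMT112, a partner of methyltransferases. None of these 3 genes passed with the block, at edgeR adjusted p of 0.712, 0.702 and 0.296 for MED24, NR1D1 and TRMT112.

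**Figure D3:**
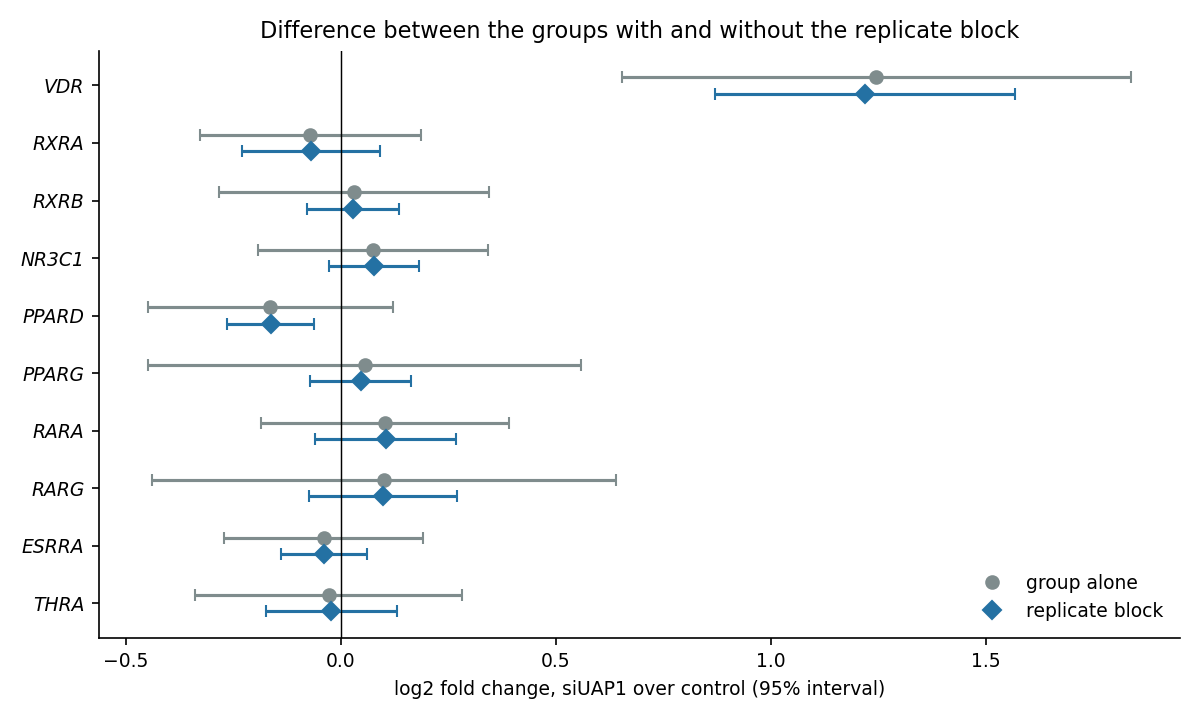
Log2 fold change of siUAP1 over control with 95% intervals for the 10 receptor genes, from edgeR with group alone (grey circles, upper) and with the replicate number as a block (blue diamonds, lower). The blocked intervals are narrower, and among the 9 receptors other than VDR the blocked interval of PPARD, at -0.16, is the one that lies on one side of 0. VDR was selected on this difference, and its interval shows the spread and is no test.

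The genes whose log2 CPM followed VDR most closely over the 6 libraries, among 10340 protein-coding genes with a mean of at least 5 CPM, were TTC7A (Pearson r = 0.998), HEG1 (r = 0.995), SOD2 (r = 0.987), B3GLCT (r = 0.985) and TBC1D16 (r = 0.984). The libraries share their groups and their replicate numbers, so genes that are higher in siUAP1 cells score high by this measure, and the values are a description. HEG1, a membrane protein of endothelial junctions, had 170, 182 and 119 CPM in siUAP1 libraries 1 to 3 and 85.5, 98.5 and 79.4 CPM in control libraries 1 to 3. SOD2, the mitochondrial superoxide dismutase, had 115, 115 and 89.6 CPM in siUAP1 libraries and 75.1, 81.5 and 78.6 CPM in control libraries.

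TTC7A, a scaffold of a phosphoinositide kinase complex, averaged 26.1 ± 2.74 CPM in siUAP1 cells and 18.9 ± 0.562 CPM in control cells. B3GLCT, a glucosyltransferase, averaged 14.6 ± 0.909 CPM in siUAP1 cells and 11.3 ± 0.256 CPM in control cells. TBC1D16, a regulator of Rab proteins, averaged 131 ± 13.6 CPM in siUAP1 cells and 96.0 ± 1.79 CPM in control cells. All 5 had groups that did not overlap, as did 12.4% of all tested genes, and their lowest siUAP1 value in library 3. VDR has both traits, and the choice of these genes by their r with VDR favours both. Among the other receptors r with VDR ran from -0.71 for RXRA to 0.58 for RARA.

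The nuclear receptor family has 48 genes in the table, of which 36 passed the filter on low counts, and VDR ranked 23 of these 36 by mean FPKM. Of the 26 tested receptors outside the 10 genes, 5 were higher and 1 lower in siUAP1 cells with the block, beside the 9.07% and 7.14% of all tested genes. With group alone and the filter on low counts, edgeR called 0 of these 26. With no filter beyond 1 count, edgeR with group alone called 0 of the 9 receptors named with VDR. Over the whole family of 48 that setting called 2 genes. This count can include VDR, which was selected on its difference, so it is given as a description. The retinoic acid receptor RARB had 63.5, 24.4 and 27.0 CPM in siUAP1 libraries 1 to 3 and 29.2, 16.0 and 18.3 CPM in control libraries 1 to 3. Its groups overlapped across numbers, yet each siUAP1 library exceeded the control of its number, and with the block RARB rose by 0.78 ± 0.09 (SE) on the log2 scale (edgeR adjusted p = 7.16e-07).

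PPARA, the fatty acid receptor of liver, rose by 0.33 ± 0.07 (edgeR adjusted p = 0.00106 with the block) and NR2F6, an orphan receptor, by 0.21 ± 0.06 (adjusted p = 0.0108, edgeR with the block). NR2F1, another orphan receptor, fell by 0.33 ± 0.06 on the log2 scale (edgeR adjusted p = 0.000364 with the block). NR1H3, an oxysterol receptor, rose by 0.40 ± 0.11 and HNF4G, at 0.800 to 3.67 CPM, by 0.90 ± 0.26, both with the block (edgeR adjusted p = 0.0147 and 0.0166). Of these 6, RARB, PPARA and NR2F1 kept their call when any one pair was left out. NR2F6 lost it without pair 3 (edgeR adjusted p = 0.190), and NR1H3 and HNF4G without pair 2 (0.0689 and 0.0510) and without pair 3 (0.0950 and 0.117). DESeq2 with the block also called RARB, PPARA and NR2F1, but not NR2F6 or NR1H3 (adjusted p = 0.0902 and 0.136), and gave no adjusted p for HNF4G.

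**Figure D4:**
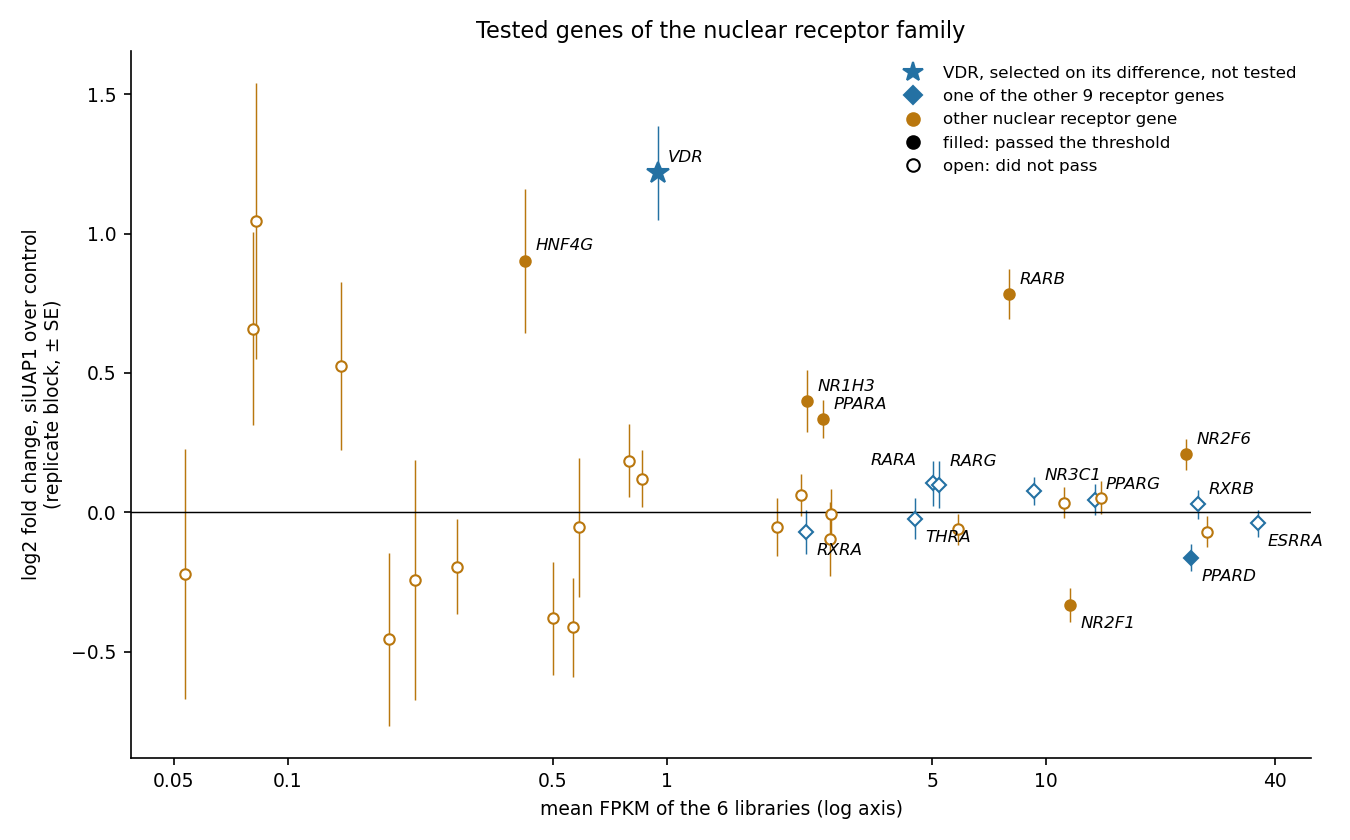
Blocked log2 fold change of siUAP1 over control (± SE) against mean FPKM (log axis) for the 36 tested nuclear receptor genes. Filled points passed the adjusted threshold with the block, and the star is VDR, which was selected on its difference and not tested. Most of the 9 receptors named with VDR lie near 0 at high FPKM, while HNF4G, RARB, NR1H3, PPARA and NR2F6 lie above 0 and NR2F1 and PPARD below.

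The wider pathways were read from 11 lists of genes, all with 0 calls in the edgeR fit with group alone and the filter on low counts. With no filter beyond 1 count that fit called 1 gene among the VDR targets, 1 of retinoid metabolism, 2 of the retinoic acid receptor targets, 1 of the NR3C1 targets and 1 of the thyroid hormone genes, and DESeq2 with group alone called 1 of the NR3C1 targets. The counts below are from the fit with the block and stand beside the 9.07% of all tested genes called higher and 7.14% called lower there, with a median log2 fold change of -0.0029 over all of them. Some genes stand on 2 lists. Leaving out pair 3 brought the calls over all genes down to 742 higher and 453 lower, and where a list lost calls with that pair its count is given. Without pair 3 the calls on vitamin D metabolism, the NR3C1 targets, the oestrogen-related receptor targets and the thyroid hormone genes stayed at the counts given below.

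Of 14 coactivators 0 were higher and 1 was lower, and the list's median log2 fold change was -0.04. NCOA3, a p160 coactivator, had 50.5, 43.3 and 28.5 CPM in siUAP1 libraries 1 to 3 and 58.1, 49.2 and 38.7 CPM in control libraries 1 to 3, and fell by 0.27 ± 0.07 on the log2 scale (edgeR adjusted p = 0.00475 with the block, 0.136 without pair 3). EP300, a histone acetyltransferase, had the next smallest p, at a log2 fold change of 0.14 (edgeR adjusted p = 0.121). Of 8 corepressors 1 was higher and 0 lower, with a median of 0.07. TBL1XR1, a subunit of the NCOR complex, rose by 0.19 ± 0.05 (edgeR adjusted p = 0.00462 with the block, 0.115 without pair 3), and its relative TBL1X stood at 0.16 (edgeR adjusted p = 0.122). Without pair 1 the corepressors held 2 genes called higher.

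Of 10 chaperones that act on steroid receptors, 1 was higher and 4 lower, with a median of -0.15. ST13, the HSP70-interacting protein, had 285, 269 and 340 CPM in siUAP1 libraries 1 to 3 and 240, 213 and 296 CPM in control libraries 1 to 3, and rose by 0.26 ± 0.05 with the block (edgeR adjusted p = 0.000259). The HSP90 genes fell, HSP90AA1 by 0.19 ± 0.05 and HSP90AB1 by 0.16 ± 0.05 on the log2 scale (edgeR adjusted p = 0.0179 and 0.0214 with the block). STIP1, which links HSP70 to HSP90, fell by 0.17 ± 0.05, and the phosphatase PPP5C by 0.17 ± 0.06 on the log2 scale (edgeR adjusted p = 0.0173 and 0.0402 with the block). PPP5C lost its call without any one pair (edgeR adjusted p = 0.255, 0.101 and 0.0782 without pair 1, 2 and 3) and in DESeq2 with the block (adjusted p = 0.178). Without pair 1 the list held 1 gene called higher, ST13, and 1 lower, HSP90AB1. Without pair 2 it held ST13 as higher and 2 as lower, HSP90AA1 and STIP1, and without pair 3 it held 1, ST13, and 0. DESeq2 with the block called HSP90AB1 and STIP1 but not HSP90AA1 (adjusted p = 0.244). The immunophilin FKBP5, also a target of NR3C1, had 36.3, 64.2 and 55.1 CPM in siUAP1 libraries and 37.3, 63.4 and 53.6 CPM in control libraries and did not pass (edgeR adjusted p = 0.944).

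Of 8 genes of vitamin D metabolism and uptake, 6 were tested, 1 was higher and 0 lower, with a median of 0.23. DHCR7, which turns the vitamin D precursor 7-dehydrocholesterol into cholesterol, had 2806, 1763 and 1543 CPM in siUAP1 libraries 1 to 3 and 2089, 1370.3 and 1217 CPM in control libraries 1 to 3, and rose by 0.38 ± 0.05 with the block (edgeR adjusted p = 2.22e-06). CYP27A1, a sterol hydroxylase, stood at 0.35 (edgeR adjusted p = 0.0694).

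Of 23 genes listed as targets of VDR, 11 were tested and 12 were too low, and of the 11 tested 4 were higher and 1 lower, with a median of 0.25. CYP24A1, which degrades the active hormone and is the usual marker of VDR activity, had 1.72, 0.536 and 0.628 CPM in siUAP1 libraries 1 to 3 and 0.988, 0.629 and 0.614 CPM in control libraries 1 to 3. The level was low, the groups overlapped, and its log2 fold change of 0.26 ± 0.40 did not pass (edgeR adjusted p = 0.733). G0S2, an inhibitor of fat breakdown, had 279, 229 and 328 CPM in siUAP1 libraries and 225, 156 and 232 CPM in control libraries, and rose by 0.46 ± 0.05 with the block (edgeR adjusted p = 2.99e-07).

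The secreted protein gene SPP1 rose by 0.64 ± 0.13 and the sugar phosphate transporter gene SLC37A2 by 0.44 ± 0.11 with the block (edgeR adjusted p = 0.00111 and 0.00659), and in both the groups did not overlap. NINJ1, a membrane rupture protein, rose by 0.25 ± 0.08, and CLMN fell by 0.21 ± 0.06 on the log2 scale (edgeR adjusted p = 0.0430 and 0.0208 with the block). Without pair 3, SPP1 and G0S2 were the 2 genes of the list called, both higher, and the same 2 were called by DESeq2 with the block.

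Of 15 genes of retinoid metabolism and binding only 5 passed the filter, of which 3 were higher and 1 lower, with a median of 0.26. DHRS3, which returns retinal to retinol, had 17.6, 24.0 and 10.1 CPM in siUAP1 libraries 1 to 3 and 10.9, 15.1 and 5.28 CPM in control libraries 1 to 3, and rose by 0.75 ± 0.10 with the block (edgeR adjusted p = 9.97e-06). The retinol dehydrogenases RDH11 and RDH10 rose by 0.22 ± 0.05 and 0.26 ± 0.08 (edgeR adjusted p = 0.00162 and 0.0195 with the block). ALDH1A3, which makes retinoic acid, had 170, 184 and 202 CPM in siUAP1 libraries and 181, 235 and 260 CPM in control libraries, and fell by 0.27 ± 0.05 on the log2 scale (edgeR adjusted p = 0.000532 with the block). Without pair 3, DHRS3 alone of the 5 genes kept a call.

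Of 11 listed targets of the retinoic acid receptors 8 were tested, 4 were higher and 0 lower, with a median of 0.51. RARB and DHRS3 belong here too. TGM2, a transglutaminase, had 1431, 1666 and 1346 CPM in siUAP1 libraries 1 to 3 and 1196, 1362 and 1174 CPM in control libraries 1 to 3, and rose by 0.25 ± 0.05 with the block (edgeR adjusted p = 0.000452). The homeobox gene HOXA5 rose by 0.41 ± 0.13 with the block (edgeR adjusted p = 0.0258, and 0.275 without pair 3). Without pair 3 the other 3 remained called.

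RARB, the family member outside the 10 genes with the smallest blocked p, is itself known to be driven by retinoic acid through a direct repeat near one of its starts. The 100 bases before the annotated start in 1 of its 4 RefSeq promoter windows (GRCh38.p14, chr3:25428163-25428262, plus strand) are printed to show that repeat. Capitals mark a match to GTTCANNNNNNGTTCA, with 36 bases between its end and the start. The other 3 windows held no match.
RARB: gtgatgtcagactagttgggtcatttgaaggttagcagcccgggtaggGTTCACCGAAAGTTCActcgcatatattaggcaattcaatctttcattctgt

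Searched on both strands, this motif was present in 20 of 35116 RefSeq promoter windows of 300 bases (0.0570%). The motif was set to the form of the known repeat of RARB, so its match there was fixed in advance. The share is given as a description. The match describes these letters and is not a measurement of binding.

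Of 17 listed targets of NR3C1 14 were tested, 5 were higher and 1 lower, with a median of 0.10. MT2A, a metallothionein, had 538, 473 and 522 CPM in siUAP1 libraries 1 to 3 and 354, 286 and 409 CPM in control libraries 1 to 3, groups that did not overlap, and rose by 0.56 ± 0.06 with the block (edgeR adjusted p = 4.66e-08). NFKBIA, the inhibitor of NF-kappa B, rose by 0.39 ± 0.07, and the apoptosis inhibitor gene BIRC3 by 0.31 ± 0.07 (edgeR adjusted p = 0.000176 and 0.00174 with the block). ERRFI1, a brake on the EGF receptor, fell by 0.30 ± 0.05 on the log2 scale (edgeR adjusted p = 2.47e-05 with the block). TSC22D3 and CEBPD, a leucine zipper gene and a transcription factor gene, rose by 0.50 ± 0.11 and 0.32 ± 0.09 (edgeR adjusted p = 0.00223 and 0.0171 with the block), and both lost the call without pair 1 (edgeR adjusted p = 0.127 and 0.307).

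Of 19 listed PPAR targets 11 were tested, 4 were higher and 0 lower, with a median of 0.14. The fatty acid oxidation genes ACADVL, ACAA2 and HADHA rose by 0.19 ± 0.05, 0.40 ± 0.11 and 0.15 ± 0.05 (edgeR adjusted p = 0.00682, 0.0146 and 0.0295 with the block). ANGPTL4, an inhibitor of lipoprotein lipase and a sensitive PPARD target, had 3.18, 2.03 and 1.06 CPM in siUAP1 libraries 1 to 3 and 2.26, 0.865 and 0.369 CPM in control libraries 1 to 3, and rose by 0.96 ± 0.31 with the block (edgeR adjusted p = 0.0327). Without pair 3, 0 of the list were called, and without pair 2, 2 were.

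Of 8 listed targets of oestrogen-related receptors 0 passed in either direction, with a median of 0.07. The smallest p belonged to VEGFA, the vascular growth factor gene, and SDHB, a subunit of succinate dehydrogenase, at log2 fold changes of 0.16 and 0.08 (edgeR adjusted p = 0.0715 and 0.389 with the block). Leaving out pair 1 or pair 2 gave 1 gene called higher in this list. Of 11 genes of thyroid hormone transport, deiodination and response 5 were tested, 1 was higher and 0 lower, with a median of 0.22. ME1, the malic enzyme, had 98.3, 87.4 and 85.7 CPM in siUAP1 libraries 1 to 3 and 74.6, 60.3 and 61.7 CPM in control libraries 1 to 3, groups that did not overlap, and rose by 0.47 ± 0.05 with the block (edgeR adjusted p = 4.45e-07).

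**Figure D5:**
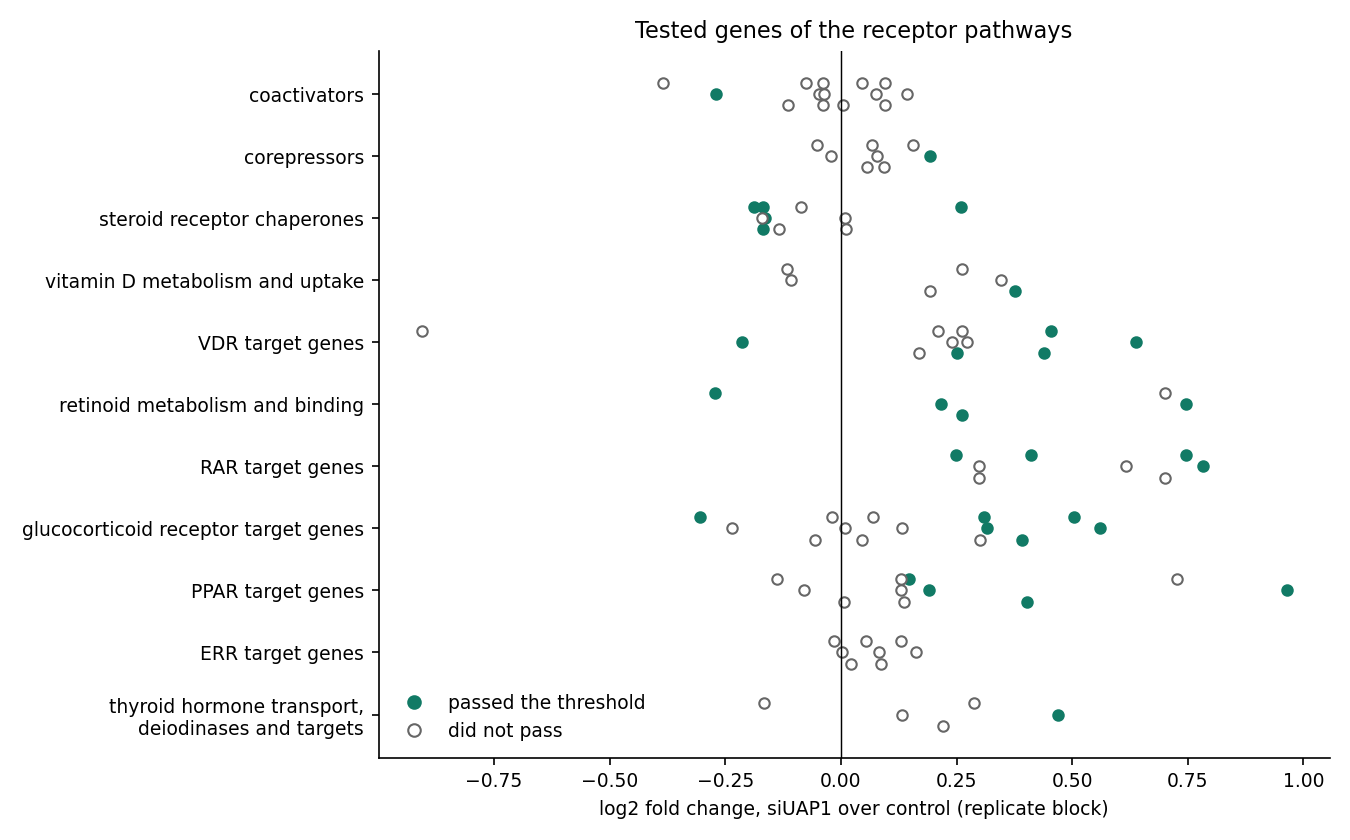
Blocked log2 fold change of siUAP1 over control for each tested gene of 11 lists (1 point per gene, rows of a list offset for legibility), filled where the gene passed the adjusted threshold with the block. The ERR target genes hold no filled point, and the filled points of the chaperones lie below 0 apart from ST13.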

How the data were processed

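The authors deposited whole-number counts per gene, unnormalized, and FPKM values, which are the counts scaled by gene length and a library total. Gene length is a column of the authors' deposited table. The build GRCh38.p12 and DESeq2 are named per the submitters' processing notes. Neither the aligner nor the counting tool, nor whether strand was used, is given in the sources used here.

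Genes were kept with filterByExpr (minimum count 10) and tested with edgeR 4.0.16 (TMM scaling, quasi-likelihood test, Benjamini-Hochberg adjustment over all 15768 tested genes, threshold 0.05), with group as the one term. CPM are on TMM-scaled library sizes, with a prior count of 2 on the log2 scale. Libraries of the same number share a code in their labels. The deviations of same-numbered libraries from their group means correlated at 0.552, 0.454 and 0.584 for numbers 1, 2 and 3, all over 0.1. Values with the replicate block, an alternative to group alone, are therefore printed as well. The pathway lists are counted mainly from the blocked fit. Replicates of a group differed by more than sampling noise (chi-square over its degrees of freedom from 23.9 to 41.3). Whether replicates are separate cultures is not in the labels, and the p-values therefore rest on a spread between libraries that may be technical. DESeq2 1.42.0 and limma 3.58.1 were alternatives. Scripts were tested on simulated data.

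The receptors and gene lists were chosen with earlier results of these data known. Named genes are the receptors, genes that overlap them, the 4 called genes of smallest blocked p in each list (or 2 where fewer than 2 were called) and the 5 genes most like VDR. CYP24A1, FKBP5, NINJ1, PPP5C, TSC22D3, CEBPD, NR1H3 and HNF4G were added after their values were seen. A gene that this rule names in the thyroid hormone list is not reported here.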

Additional observations from a re-analysis of the deposited data

How the results depend on the processing

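With group alone, edgeR called 5 genes higher and 12 lower. The count of genes called higher was 182 with no filter beyond 1 count, 8 at a mean CPM of at least 5, 95 with DESeq2 and 3 with limma-voom, and the count called lower was 91 with no filter and 70 with DESeq2. With the replicate block 1430 genes were higher and 1126 lower. The blocked counts were 744 and 567 with DESeq2, 1421 and 1124 with limma-voom, 1401 and 1138 with RLE scaling, and 1432 and 1155 with library totals. Leaving out pair 1, 2 or 3 gave 1238 and 966, 1110 and 877, and 742 and 453. Without 1 library and without the block, 0 genes were higher and 1 to 3 lower. With limma on FPKM, 0 genes were higher, and 2, 3 and 1 were lower with a pseudocount of 1, of 0.1, and of 1 with no filter. In DESeq2 with the block, 1 chaperone was called higher and 2 lower. Of the VDR targets 2 were higher and 0 lower, and of the PPAR targets 1 and 0. Retinoid metabolism held 2 higher and 1 lower, the retinoic acid receptor targets 3 and 0, and the NR3C1 targets 4 and 1. The other pathway lists kept the counts of edgeR with the block. The cause of these differences was not tested.

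Of the 9 receptors other than VDR, 1 was called, PPARD, in the edgeR block fits with all 3 scalings and in limma-voom with the block, and 0 in every other setting run. With pair 1 left out RXRB stood at -0.024 and THRA at 0.048. Without 1 library and without the block, the log2 fold change ran from -0.058 to 0.14 for RXRB and -0.0013 to 0.17 for NR3C1. It ran from -0.20 to 0.27 for PPARG, -0.15 to 0.31 for RARG, -0.095 to 0.024 for ESRRA and -0.10 to 0.11 for THRA. Over all settings run these 6 therefore have no settled direction. In the blocked settings NR3C1, PPARG and RARG stayed above 0 and ESRRA below 0, and none of them was called. RXRA, PPARD and RARA kept their direction in every setting run. VDR was higher in siUAP1 cells in every setting that gave it a value. Its log2 fold changes were 0.56 to 1.46, with 0.56 on log2(FPKM + 1) with no filter. VDR was selected on this difference in these same libraries, so its direction over the settings is a description and no test. Its counts of 65 to 249 per library limit how finely the difference can be measured, as do 3 libraries per group.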
